A study of Mus musculus with 9 samples.

Results

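Genes that mark the mural cells of blood vessels, which are the smooth muscle cells and pericytes of the vessel wall, were followed in mouse hearts. The 8 genes were Acta2, Myh11, Tagln, Cnn1, Rgs5, Pdgfrb, Cspg4 and Abcc9. They were taken by symbol from a table of 29237 genes, each symbol matched 1 row, and all 8 passed the filter on low values with 12500 genes in all. Messenger RNA had been sequenced from hearts in 9 libraries, 3 in each of 3 groups. All the mice were wild-type C57BL/6 animals of 8 to 12 weeks, per the labels. The groups were TPTN (mice given an agent that the labels call TPTN), DOX (a doxorubicin model of dilated cardiomyopathy) and Control (the normal group). The series title sets TPTN within doxorubicin-induced dilated cardiomyopathy, but no label says whether the TPTN mice also received doxorubicin, and doses, routes and days are not given in the sources used here. Nothing in the labels says that the 3 libraries of a group came from separate animals, so a p-value measures the spread between these libraries, which may be technical.

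Mural cells wrap the endothelial tube. Smooth muscle cells of arteries and veins contract through a specialised actin and myosin apparatus, whereas pericytes of capillaries carry little of it and are recognised by surface receptors and signalling proteins. Many contractile genes of smooth muscle are switched on by serum response factor (SRF) with its partner myocardin, and pericytes depend on platelet-derived growth factor B released by endothelial cells and sensed by the receptor encoded by Pdgfrb.

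Values are FPKM (mapped fragments divided by transcript length in kilobases and by the size of the library), which divide by transcript length and so allow levels of different genes to be compared. The table holds no read counts. A depth could not be recovered from it, because just 10.9 to 14.3% of small FPKM values came out whole (within 0.05) when divided by the value of a single fragment, so depth is treated as unknown. Mitochondrial genes made up 48.1 to 48.7% of the FPKM sum in TPTN libraries, 44.7 to 46.2% in DOX libraries and 49.8 to 50.9% in Control libraries, without overlap of the groups. The FPKM sum itself also differed between libraries, so this share alone does not give the FPKM of the other genes. DOX replicate 1 stood apart in markers of atrial muscle: the summed FPKM of 8 atrial markers was 2604 there, 312 and 219 in the other DOX libraries, 74.2 to 140 in TPTN hearts and 70.4 to 167 in Control hearts. Of these sums, Nppa alone held 1736 FPKM in DOX replicate 1, 288 FPKM in DOX replicate 2 and 195 FPKM in DOX replicate 3. Myl7, the atrial myosin light chain, stood at 539 FPKM in DOX replicate 1 and at most 0.889 FPKM in any other library. The summed fibroblast markers were also highest in DOX replicate 1, at 609 FPKM, against 384 and 428 in the other DOX libraries, 356 to 408 in TPTN hearts and 360 to 395 in Control hearts. Gsn alone held 439 FPKM of the 609. Dcn, Dpt, Pdgfra and Tcf21 were also highest in that library, whereas Col1a1, Col1a2, Col3a1, Lum and Postn were not. In bulk tissue, fewer cells of a type and less RNA per cell cannot be told apart.

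Acta2 encodes smooth muscle alpha-actin and lies at GRCm38 chr19:34241090-34255590 on the minus strand in the GENCODE M21 annotation. Heart muscle makes a very similar actin from Actc1 and some skeletal alpha-actin from Acta1, so the reads of Acta2 were first checked for overlap with these genes. Of 1131 coding bases, Acta2 and Actc1 were identical at 934 (82.6%), and Acta2 and Acta1 at 966 (85.4%). The 90 coding bases from 706 to 795 are printed because they are a close stretch of the 3 genes, in which Actc1 differs from Acta2 at 8 bases and Acta1 at 12. Capitals mark the positions at which the 3 sequences are not all the same. The strand is minus for all, and the stretch lies in exon 7 of Acta2 (chr19:34244925-34245014), exon 5 of Actc1 (chr2:114049182-114049271) and exon 5 of Acta1 (chr8:123892557-123892646).
Acta2: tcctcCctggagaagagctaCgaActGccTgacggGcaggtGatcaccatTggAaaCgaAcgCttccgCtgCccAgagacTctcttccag
Actc1: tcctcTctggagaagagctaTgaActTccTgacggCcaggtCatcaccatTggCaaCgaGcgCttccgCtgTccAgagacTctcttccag
Acta1: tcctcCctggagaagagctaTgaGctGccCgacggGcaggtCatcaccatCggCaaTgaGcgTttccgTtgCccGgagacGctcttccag
Over the whole of its transcripts Acta2 had 2165 words of 31 bases, of which 0 occurred in Actc1 or Acta1, 17 and 26 occurred in the cytoplasmic actin genes Actb and Actg1, and 30 (1.39%) occurred in any other gene. The differences between the actin genes thus fell often enough to break every such word shared with the heart and skeletal forms.

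SRF binds a sequence called the CArG box, which has CC and GG on either side of a core of 6 letters of A or T. RefSeq promoter windows (GRCm38.p6) were matched for Acta2, Cnn1, Rgs5, Cspg4 and Abcc9. The 250 bases before each start were searched for the box with at most 1 other letter in the core, a pattern that reads alike on both strands. Acta2 held 2 such boxes, each with 1 other letter in its core, and Cnn1, Rgs5, Cspg4 and Abcc9 held 0. Among 32851 promoters, 8.59% held at least 1 such box, 0.67% held 2 or more and 1.47% held an exact one. The 2 boxes of Acta2 are shown in capitals with their flanks, as 30 bases each of the minus strand, at chr19:34255438-34255467 and chr19:34255388-34255417. Counted back from the RefSeq start, the boxes span positions -84 to -75 and -34 to -25. The longer Acta2 transcript in GENCODE M21 begins upstream of both.
Acta2 box 1: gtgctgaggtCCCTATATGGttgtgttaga
Acta2 box 2: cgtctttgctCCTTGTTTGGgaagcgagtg
A match of letters is a description of the window and shows no binding.

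In the same annotation Myh11 lies at chr16:14194535-14291372 (minus strand), Tagln at chr9:45929619-45936058 (minus), Cnn1 at chr9:22099216-22109630 (plus), Rgs5 at chr1:169655501-169695813 (plus), Pdgfrb at chr18:61045150-61085061 (plus), Cspg4 at chr9:56865033-56899870 (plus) and Abcc9 at chr6:142587862-142702315 (minus). Of the 31-base words of Tagln, Cnn1, Pdgfrb and Cspg4, 0 occurred in another gene. Myh11 shared 69 of 7625 words (0.905%), 64 of them with the non-muscle myosin gene Myh9, Rgs5 shared 3 of 4516 and Abcc9 119 of 8430 (1.41%), so reads of near-identical copies could touch these 8 genes only in small stretches.

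The 8 genes spanned a wide range of levels. Rgs5, a regulator of G protein signalling used as a pericyte marker, averaged 85.4 FPKM over the 9 libraries, followed by Acta2 at 48.7, Abcc9 at 16.2, Pdgfrb at 9.85, Tagln at 8.82, Myh11 at 3.39, Cspg4 at 1.26 and Cnn1 at 0.534 FPKM. In this order Rgs5 (71.5 to 93.7 FPKM) did not overlap with Acta2 (25.1 to 67.3 FPKM) over the 9 libraries, and Myh11 (2.42 to 4.27 FPKM) did not overlap with Cspg4 (1.07 to 1.52 FPKM). Abcc9 (10.6 to 20.4 FPKM) and Pdgfrb (8.94 to 11.1 FPKM) overlapped at their edges, and Pdgfrb and Tagln (4.45 to 15.6 FPKM) did not differ in order beyond their spread. Against all tested genes, Rgs5 stood at the 97.4th percentile of level, Acta2 at the 95.7th, Myh11 at the 52.9th and Cnn1 at the 1.54th, just above the filter at a mean of 0.5 FPKM. The defining markers of both cell types were therefore present in the hearts, and neither set stood above the other as a whole. The pericyte genes Rgs5 and Pdgfrb had higher levels per length than the smooth muscle myosin Myh11. The pericyte gene Cspg4 was below Myh11, and the smooth muscle gene Acta2 was above Abcc9, Pdgfrb and Cspg4.

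**Figure D1:**
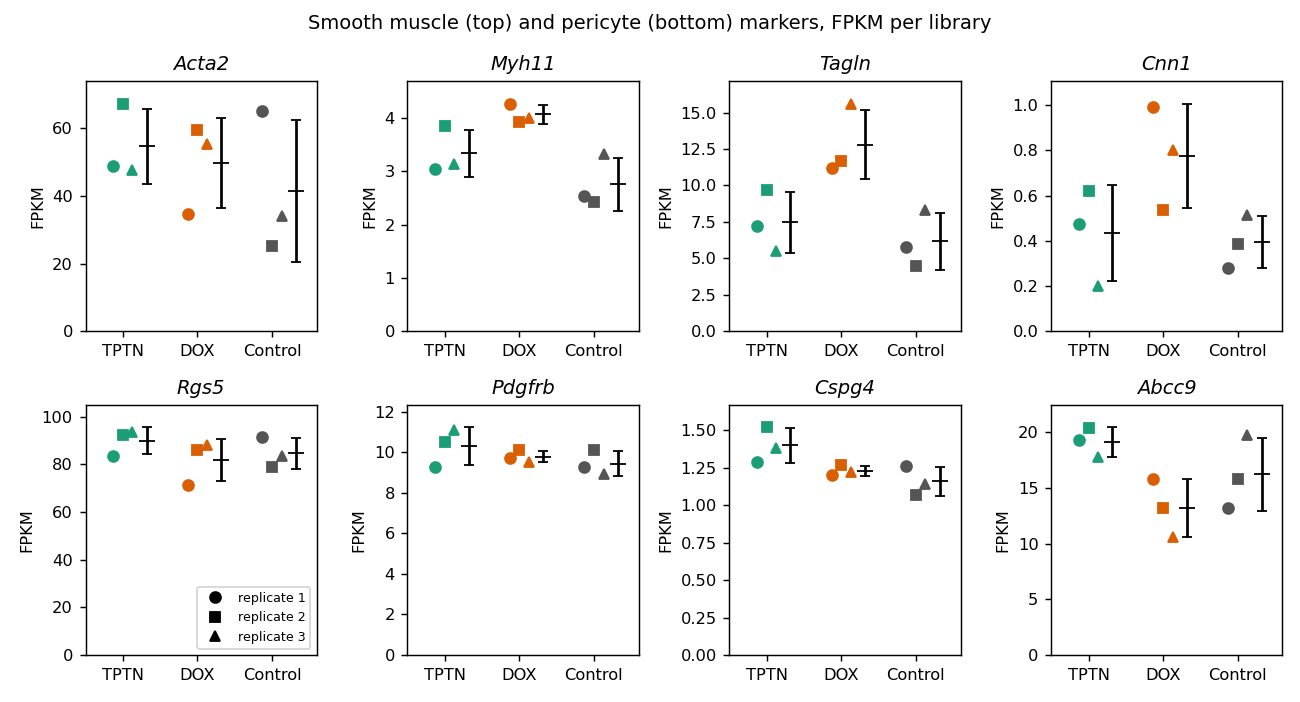
FPKM of the 8 genes in each library, with 1 panel per gene, 1 point per library and the mean with its SD (n = 3) beside each group; the y axes are linear, start at 0 and differ between panels. The DOX points of Tagln, Myh11 and Cnn1 lie above all Control points, Pdgfrb and Cspg4 show narrow ranges, and Acta2 is widely scattered within Control hearts.

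The genes also differed in how steady they were. From the lowest to the highest of the 9 libraries, Pdgfrb varied 1.25-fold, Rgs5 1.31-fold and Cspg4 1.42-fold, whereas Acta2 varied 2.68-fold, Tagln 3.5-fold and Cnn1 4.92-fold. Among the 1000 genes nearest in level, the within-group SD of log2(FPKM + 1) stood at the 97.4th percentile for Acta2, the 96.6th for Tagln and the 94.7th for Abcc9. It stood at percentile 76.1 for Cnn1, 72.9 for Myh11, 68.4 for Rgs5, 35.1 for Pdgfrb and 5.1 for Cspg4. Replicates of Acta2 and Tagln were thus more scattered than those of most genes at their level, and their intervals are correspondingly wide.

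DOX hearts had more RNA of the contractile smooth muscle genes Tagln, Myh11 and Cnn1 in every library than any Control heart, but 0 of the 8 genes passed the test across all genes. The test was limma on log2(FPKM + 1) with Benjamini-Hochberg adjustment over 12500 genes at 0.05, and it called 2.63% of all genes in DOX against Control (2.23% higher and 0.4% lower). At an unadjusted p under 0.05 it gave 3 of the 8 as higher and 0 as lower, beside 14.6% and 3.47% of all genes. Groups did not overlap for 3 of the 8, all higher, beside 17.7% of all genes higher and 5.1% lower. The median log2 difference was 0.39 for the 4 contractile genes and -0.00069 for the 4 pericyte genes, beside 0.044 over all tested genes.

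Tagln encodes transgelin, an actin-binding protein abundant in smooth muscle, and showed the largest difference of the 8. It had 11.2, 11.7 and 15.6 FPKM in DOX hearts, against 5.79, 4.45 and 8.32 FPKM in Control hearts. All 3 DOX libraries were higher than all 3 Control libraries. The group means were 12.8 ± 2.39 FPKM in DOX hearts and 6.18 ± 1.96 FPKM in Control hearts (SD, n = 3 each), a ratio of 2.07. The log2 difference was 0.97 with an SE of 0.24 and a 95% interval of 0.41 to 1.52, and limma's adjusted p was 0.0855 (unadjusted p = 0.00404). Tagln overlaps the antisense gene Gm48529 over 3627 bases and the end of Pcsk7 over 108 bases. Gm48529 averaged 0.664 ± 0.138 FPKM in DOX hearts and 0.633 ± 0.152 FPKM in Control hearts, and Pcsk7 averaged 2.94 ± 0.325 FPKM in DOX hearts and 3.06 ± 0.19 FPKM in Control hearts (SD, n = 3 each). Whether counting used the strand is not given in the sources used here, and the part of antisense reads in the Tagln values was not tested.

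Myh11, the myosin heavy chain of smooth muscle, had 4.27, 3.93 and 4.0 FPKM in DOX hearts, against 2.53, 2.42 and 3.33 FPKM in Control hearts. The DOX libraries lay close together and above every Control library. Its means were 4.07 ± 0.177 FPKM in DOX hearts and 2.76 ± 0.497 FPKM in Control hearts (SD, n = 3 each), and the log2 difference was 0.44 (SE 0.10, 95% interval 0.21 to 0.67, limma's adjusted p = 0.0532). With the filter raised to a mean of 1 FPKM, which leaves fewer genes to adjust over, the same difference had an adjusted p of 0.0412 in limma and passed. Under the 3 scalings that change the library totals, the log2 difference of Myh11 was 0.31 to 0.39 (adjusted p 0.0789 to 0.133), lowest when mitochondrial genes were left out of the total. That of Tagln was 0.82 to 0.91 (limma's adjusted p 0.108 to 0.113). Cnn1, which encodes calponin, an actin-bound brake on smooth muscle contraction, had 0.992, 0.535 and 0.803 FPKM in DOX hearts, against 0.281, 0.387 and 0.513 FPKM in Control hearts. The lowest DOX value stood just above the highest Control value, and the log2 difference was 0.35 (SE 0.13, limma's adjusted p = 0.189), or 0.28 to 0.32 under the scalings (adjusted p 0.233 to 0.258). Adding 1 to so low a value shrinks the log2 difference of Cnn1, whose means had a ratio of 1.97. With 0.1 added instead, the difference was 0.82 (limma's adjusted p = 0.242). Acta2 had 34.8, 59.6 and 55.4 FPKM in DOX hearts, against 65.2, 25.1 and 34.0 FPKM in Control hearts. These groups overlapped widely, and the log2 difference of 0.34 had a 95% interval of -0.55 to 1.23 (limma's adjusted p = 0.706). Without Control replicate 1 the difference was 0.71 and without Control replicate 2 it was 0.044, so single Control libraries set the value of Acta2.

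The Tagln and Myh11 differences were of similar size without DOX replicate 1, the library with atrial markers. The log2 difference was then 1.05 for Tagln (limma's adjusted p = 0.109) and 0.41 for Myh11 (adjusted p = 0.104). That of Cnn1 was 0.26 without it (adjusted p = 0.341). For Acta2 it was 0.57 (adjusted p = 0.48).

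The pericyte genes Pdgfrb, Rgs5 and Cspg4 were nearly level between DOX and Control hearts, whereas Abcc9 had a lower mean in DOX hearts with overlapping libraries. Pdgfrb, the receptor for platelet-derived growth factor B, had 9.74, 10.1 and 9.53 FPKM in DOX hearts, against 9.26, 10.1 and 8.94 FPKM in Control hearts, and the 95% interval of the log2 difference ran from -0.12 to 0.22. Rgs5 had 71.5, 86.0 and 88.0 FPKM in DOX hearts, against 91.5, 78.8 and 83.5 FPKM in Control hearts, with an interval of -0.25 to 0.15. Cspg4, the surface proteoglycan NG2, averaged 1.23 ± 0.0335 FPKM in DOX hearts and 1.16 ± 0.0982 FPKM in Control hearts (SD, n = 3 each), with an interval of -0.11 to 0.21. The libraries of these genes overlapped between the groups. Abcc9 encodes the sulphonylurea receptor SUR2 of ATP-sensitive potassium channels, which is made in pericytes and in heart muscle cells. It had 15.8, 13.2 and 10.6 FPKM in DOX hearts, against 13.2, 15.8 and 19.7 FPKM in Control hearts, and the groups overlapped (log2 difference -0.28, SE 0.16, 95% interval -0.628 to 0.0755, limma's adjusted p = 0.407). Under scalings that change the library totals, the differences of Pdgfrb and Rgs5 ran from -0.101 to -0.0097 and from -0.214 to -0.114, so the sign for Pdgfrb rested on the scaling, and that of Cspg4 ran from -0.041 to 0.015. The difference of Abcc9 ran from -0.431 to -0.337 under them (limma's adjusted p 0.197 to 0.274).

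**Figure D2:**
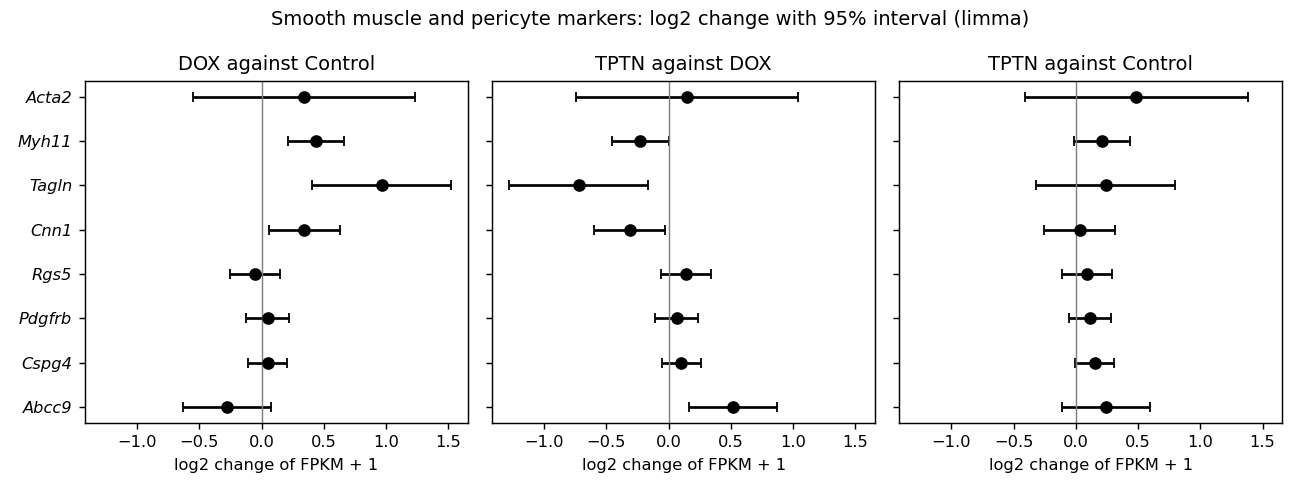
Log2 difference of FPKM + 1 (points) with its 95% interval from limma (bars) for the 8 genes in DOX against Control, TPTN against DOX and TPTN against Control; the vertical line marks no difference. Tagln, Myh11 and Cnn1 lie to the right in DOX against Control, Tagln, Cnn1 and Myh11 to the left and Abcc9 to the right in TPTN against DOX, and all intervals in TPTN against Control include 0.

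TPTN hearts stood below DOX hearts in Tagln and Myh11 and above them in Abcc9 and Cspg4 without overlap, and again 0 of the 8 genes passed the test. In TPTN against DOX limma called 3.26% of all genes (0.792% higher and 2.46% lower). At an unadjusted p under 0.05 it gave 1 of the 8 as higher (Abcc9) and 2 as lower (Tagln and Cnn1), beside 7.78% and 12.9% of all genes. The 2 genes higher and 2 genes lower without overlap stood beside 10.4% and 14.1% of all genes. Both comparisons with DOX hearts use the same 3 DOX libraries, so opposite signs in them are not separate observations.

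Tagln had 7.19, 9.69 and 5.5 FPKM in TPTN hearts, against the 11.2 to 15.6 FPKM of DOX hearts. The highest TPTN library was below the lowest DOX library, with means of 7.46 ± 2.11 FPKM in TPTN hearts and 12.8 ± 2.39 FPKM in DOX hearts (SD, n = 3 each). The log2 difference was -0.72 (SE 0.24, 95% interval -1.28 to -0.17, limma's adjusted p = 0.144). Myh11 had 3.04, 3.85 and 3.13 FPKM in TPTN hearts, against 3.93 to 4.27 FPKM in DOX hearts, and the nearest libraries of the groups were close (log2 difference -0.23, SE 0.10, limma's adjusted p = 0.245). Under the 3 scalings the difference of Myh11 was -0.222 to -0.122 (limma's adjusted p 0.201 to 0.469). That of Tagln was -0.713 to -0.602 (limma's adjusted p 0.132 to 0.149). Cnn1 had 0.475, 0.621 and 0.201 FPKM in TPTN hearts, against 0.535 to 0.992 FPKM in DOX hearts. The groups overlapped through TPTN replicate 2, and the log2 difference was -0.31 (SE 0.13, limma's adjusted p = 0.201). With 0.1 added in place of 1, the difference was -0.77 (limma's adjusted p = 0.235). Acta2 had 49.0, 67.3 and 47.7 FPKM in TPTN hearts, which lay within and above the DOX range (log2 difference 0.15, SE 0.38). Without DOX replicate 1 the Acta2 difference was -0.088, and that of Tagln was -0.81 (limma's adjusted p = 0.142).

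Abcc9 had 19.3, 20.4 and 17.8 FPKM in TPTN hearts, against 15.8, 13.2 and 10.6 FPKM in DOX hearts. Every TPTN library was above every DOX library, with means of 19.1 ± 1.32 FPKM in TPTN hearts and 13.2 ± 2.58 FPKM in DOX hearts (SD, n = 3 each) and a ratio of 1.45. The log2 difference was 0.52 (SE 0.16, 95% interval 0.17 to 0.87, limma's adjusted p = 0.104). Without DOX replicate 1 it was 0.65 (adjusted p = 0.0544), and without DOX replicate 3 it was 0.38. Under the 3 scalings it was 0.528 to 0.641 (limma's adjusted p 0.0604 to 0.0806). Cspg4 had 1.29, 1.52 and 1.38 FPKM in TPTN hearts, against 1.20, 1.27 and 1.22 FPKM in DOX hearts. Here the groups met almost at the edge, and the log2 difference was 0.10 (SE 0.071, limma's adjusted p = 0.45). Rgs5 averaged 89.9 ± 5.58 FPKM in TPTN hearts and 81.8 ± 8.97 FPKM in DOX hearts (SD, n = 3 each), with overlapping libraries. Its log2 difference of 0.14 had an adjusted p of 0.424 in limma, and after quantile normalization it was 0.32 with an adjusted p of 0.0488, which passes. Without DOX replicate 1, the lowest library for Rgs5 at 71.5 FPKM, the difference was 0.046 (limma's adjusted p = 0.765). Pdgfrb averaged 10.3 ± 0.935 FPKM in TPTN hearts and 9.79 ± 0.282 FPKM in DOX hearts, with a 95% interval of -0.11 to 0.24 for the log2 difference. Under the 3 scalings the differences of Pdgfrb and Cspg4 ran from 0.0749 to 0.186 and from 0.0997 to 0.176.

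Between TPTN and Control hearts 0 of the 8 genes passed the test, and 0 had an unadjusted p under 0.05, while limma called 0.72% of all genes (0.336% higher and 0.384% lower) and gave an unadjusted p under 0.05 to 9.02% as higher and 4.12% as lower. Only Cspg4 of the 8 had groups without overlap, higher in TPTN hearts, beside 15.2% of all genes higher and 6.03% lower. It had 1.29 to 1.52 FPKM in TPTN hearts, against 1.07 to 1.26 FPKM in Control hearts (log2 difference 0.15, SE 0.071, limma's adjusted p = 0.402). The log2 differences of all 8 genes were above 0, as were those of 62.4% of tested genes. That of Cnn1, at 0.032, was the exception under other settings, with -0.0040 under one of the scalings and -0.063 without TPTN replicate 2. The widest was that of Acta2, at 0.49 with a 95% interval of -0.41 to 1.38. Tagln averaged 7.46 ± 2.11 FPKM in TPTN hearts and 6.18 ± 1.96 FPKM in Control hearts, and Myh11 averaged 3.34 ± 0.441 FPKM in TPTN hearts and 2.76 ± 0.497 FPKM in Control hearts (SD, n = 3 each). For both, the libraries of these groups overlapped.

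Other smooth muscle genes gave few calls. Of 15 in the table, 12 were tested, and in DOX against Control 1 passed as higher and 0 as lower. This was Pcp4l1, which encodes a small protein related to the calmodulin regulator Pcp4, with 100, 95.7 and 92.9 FPKM in DOX hearts, against 75.9, 78.6 and 72.8 FPKM in Control hearts. Pcp4l1 averaged 82.9 FPKM over the 9 libraries, beside 8.82 for Tagln, and the cell type carrying it was not tested. It rose in DOX hearts by 0.34 on the log2 scale (limma's adjusted p = 0.0352), with no overlap of the groups. In TPTN against DOX it fell (log2 difference -0.33, adjusted p = 0.0365), and its 70.4, 82.8 and 76.8 FPKM in TPTN hearts lay near the Control values. The DOX against Control call held in 2 of the 9 fits that left out a library, those without TPTN replicate 1 or 2, with adjusted p up to 0.118 in the others and log2 differences of 0.31 to 0.37. The TPTN against DOX call held in 2 of 9, those without Control replicate 1 or 2, with adjusted p up to 0.116 and log2 differences of -0.38 to -0.27. Quantile normalization ended both calls (adjusted p = 0.177 in each), as did scaling that leaves out mitochondrial genes (0.176 and 0.104), and scaling by median ratios ended the first (0.0579). The median log2 difference of the 12 genes in DOX against Control was 0.093, beside 0.044 over all tested genes. At an unadjusted p under 0.05, limma gave 4 of the 12 as higher and 0 as lower there, beside 14.6% and 3.47% of all genes.

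Myl9, the regulatory light chain of smooth muscle myosin, and Tpm2, a tropomyosin, are named after their values were seen, as the genes of the list with the next smallest p in DOX against Control. The 12 genes had 7 log2 differences above 0 and 5 below it there, and the 5 below were Ppp1r14a, Cald1, Aoc3, Synpo2 and Myocd, at -0.117 to -0.014. Myl9 had 29.2, 14.9 and 18.5 FPKM in DOX hearts, against 11.2, 8.30 and 11.3 FPKM in Control hearts. All DOX libraries were above the Control libraries, with DOX replicate 1 highest (log2 difference 0.91, limma's adjusted p = 0.0861), a library that was the lowest of DOX for Tagln. Tpm2 had 9.02, 4.85 and 6.49 FPKM in DOX hearts, against 3.16, 3.93 and 4.97 FPKM in Control hearts, and these overlapped (log2 difference 0.62, limma's adjusted p = 0.144). In both, the highest library was the one with atrial markers and the highest fibroblast sum, and the part of these in the values was not tested.

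Myocd, the gene of myocardin, was the other smooth muscle gene past the threshold in TPTN against DOX. It is also expressed in heart muscle cells. Myocd had 4.52, 4.56 and 6.09 FPKM in TPTN hearts, against 3.74, 3.03 and 2.75 FPKM in DOX hearts. It rose by 0.54 on the log2 scale (limma's adjusted p = 0.0352) with no overlap of the groups, and the call held in 3 of the 9 fits that left out a library (DOX replicate 1, Control replicate 1 or Control replicate 2), with adjusted p up to 0.104 in the others and log2 differences of 0.42 to 0.63. Against Control hearts, which had 3.21, 3.05 and 3.32 FPKM, TPTN hearts had a log2 difference of 0.52 (limma's adjusted p = 0.0687). In this last comparison 0 of the 12 genes passed. At an unadjusted p under 0.05, limma gave 4 as higher and 0 as lower, beside 9.02% and 4.12% of all genes. In sign, the Myocd difference between TPTN and DOX hearts was opposite to those of Tagln and Myh11. Myocd was not alone in this: of the 12 genes, 7 had log2 differences above 0 in TPTN against DOX and 5 below it. At an unadjusted p under 0.05, limma gave 4 of the 12 as higher and 2 as lower there, beside 7.78% and 12.9% of all genes.

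Of 14 other pericyte and mural genes, 13 were tested. In DOX against Control 0 passed and 0 had an unadjusted p under 0.05, beside 14.6% of all genes higher and 3.47% lower. In TPTN against DOX 1 passed as higher and 0 as lower, and this was Notch3, a receptor that keeps arterial mural cells in their mature state. Notch3 had 5.04, 5.23 and 5.99 FPKM in TPTN hearts, against 4.05, 3.8 and 4.03 FPKM in DOX hearts. It rose by 0.37 on the log2 scale (limma's adjusted p = 0.0351), and all TPTN libraries were above all DOX libraries. The call held in 3 of the 9 fits that left out a library (the same 3 as for Myocd), with adjusted p up to 0.107 in the others and log2 differences of 0.31 to 0.41. At an unadjusted p under 0.05, limma gave 2 of the 13 as higher and 0 as lower in TPTN against DOX, beside 7.78% and 12.9% of all genes. In TPTN against Control 0 passed, with 3 higher and 0 lower at an unadjusted p under 0.05, beside 9.02% and 4.12% of all genes. Among these 3 were Notch3 (log2 difference 0.27, limma's adjusted p = 0.167) and Rgs4, a relative of Rgs5 (0.32, adjusted p = 0.246). The median log2 difference of the 13 genes was 0.014 in TPTN against DOX and 0.10 in TPTN against Control, beside -0.0079 and 0.037 over all genes.

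**Figure D3:**
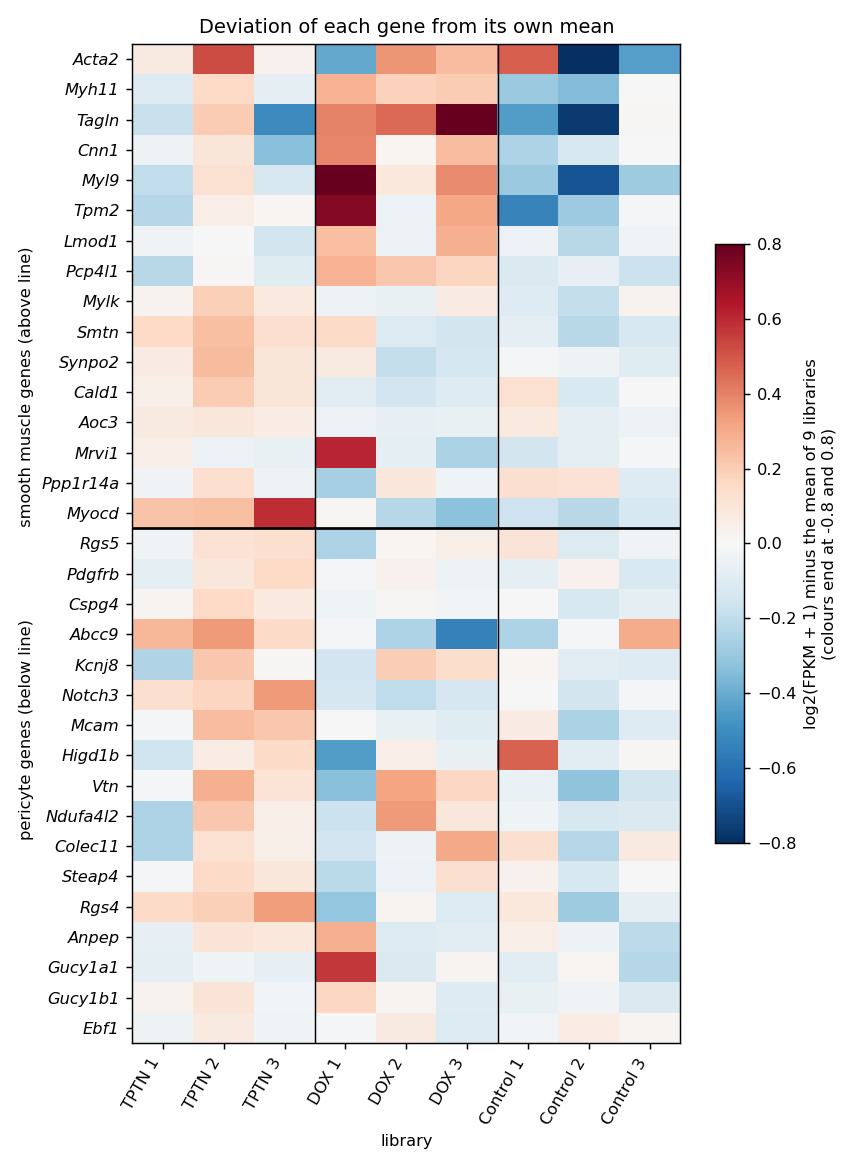
Deviation of log2(FPKM + 1) from each gene's mean over the 9 libraries (colour, ending at -0.8 and 0.8), with libraries in columns and the tested smooth muscle genes above the line and pericyte genes below it. Tagln, Myh11, Cnn1 and Pcp4l1 are above their means or near them in the 3 DOX libraries, Notch3, Abcc9 and Myocd are above theirs in the 3 TPTN libraries, and Acta2 varies from library to library within groups.

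Myocd was the sole call among the regulators of contractile genes examined. Of 9 further genes, for SRF and factors that act with it or against it, 8 were tested and 0 passed in any of the 3 comparisons. At an unadjusted p under 0.05, limma gave 1 higher and 1 lower in DOX against Control, beside 14.6% and 3.47% of all genes. It gave 0 higher and 1 lower in TPTN against DOX, beside 7.78% and 12.9%. In TPTN against Control it gave 0, beside 9.02% higher and 4.12% lower. Srf itself, named after its values were seen, averaged 21.3 ± 0.986 FPKM in TPTN hearts, 21.4 ± 2.01 FPKM in DOX hearts and 19.8 ± 4.54 FPKM in Control hearts (SD, n = 3 each). Tead1, a transcription factor of the Hippo pathway, had the smallest p, with 6.68 ± 1.37 FPKM in DOX hearts and 8.97 ± 0.362 FPKM in Control hearts (log2 difference -0.39, limma's adjusted p = 0.096).

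Among ligands and the sister receptor of the platelet-derived growth factor family, 4 of 5 genes were tested and Pdgfa alone passed, in DOX against Control. Pdgfa encodes the A chain, which signals through the alpha receptor of fibroblasts. It had 3.83, 4.03 and 3.32 FPKM in DOX hearts, against 2.58, 2.13 and 2.47 FPKM in Control hearts. It rose by 0.48 on the log2 scale (limma's adjusted p = 0.0283) without overlap, and the call was lost after scaling that leaves out mitochondrial genes (adjusted p = 0.0713). It was also lost without DOX replicate 1, DOX replicate 2, Control replicate 2 or Control replicate 3 (adjusted p up to 0.104), with log2 differences of 0.42 to 0.54. Pdgfb, the ligand that holds pericytes to the endothelium, had 7.87 ± 0.804 FPKM in DOX hearts and 6.43 ± 0.281 FPKM in Control hearts (SD, n = 3 each), with a log2 difference of 0.25 (limma's adjusted p = 0.164). At an unadjusted p under 0.05, limma gave 2 of the 4 as higher and 0 as lower in DOX against Control, beside 14.6% and 3.47% of all genes. In TPTN against DOX 0 of the 4 passed, with 0 higher and 1 lower at that p, beside 7.78% and 12.9%. In TPTN against Control 0 passed, with 2 higher and 0 lower, beside 9.02% and 4.12%.

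Other genes of ATP-sensitive potassium channels gave no call. Kcnj8, the pore subunit of the vascular channel, averaged 12.4 ± 2.11 FPKM in TPTN hearts, 13 ± 1.79 FPKM in DOX hearts and 11.8 ± 0.597 FPKM in Control hearts (SD, n = 3 each). Kcnj11, the pore subunit of the heart muscle channel, averaged 27.5 ± 1.13 FPKM in TPTN hearts, 29.6 ± 1.38 FPKM in DOX hearts and 27.0 ± 1.20 FPKM in Control hearts. With Abcc8, 0 of 3 genes passed in any comparison, and 0 had an unadjusted p under 0.05. In FPKM per FPKM, the ratio of Abcc9 to Kcnj8 was 1.87, 1.41 and 1.43 in TPTN hearts, 1.44, 0.921 and 0.775 in DOX hearts, and 1.06, 1.37 and 1.74 in Control hearts. The TPTN and DOX ratios overlapped by a narrow margin. Ryr2, the calcium release channel of heart muscle cells, fell in DOX against Control (log2 difference -0.56, limma's adjusted p = 0.0327), with 27.3, 22.7 and 18.6 FPKM in DOX hearts, against 32.4, 36.0 and 32.8 FPKM in Control hearts. In TPTN hearts it had 30.5, 31.5 and 31.6 FPKM. The ratio of Abcc9 to Ryr2 was 0.632, 0.647 and 0.562 in TPTN hearts, 0.580, 0.580 and 0.573 in DOX hearts, and 0.407, 0.438 and 0.603 in Control hearts. These ratios overlapped between TPTN and DOX hearts. Which cell type carried the Abcc9 values was not tested.

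Tagln and Myh11 were also set against the steady pericyte receptor gene Pdgfrb. The ratio of Tagln to Pdgfrb was 0.774, 0.925 and 0.493 in TPTN hearts, 1.15, 1.16 and 1.63 in DOX hearts, and 0.625, 0.440 and 0.931 in Control hearts. The DOX libraries were above all others. Since both genes come from the same library, this ratio does not change when a library is scaled by a single factor. Quantile normalization uses no single factor and can change it. The ratio of Myh11 to Pdgfrb was 0.327, 0.367 and 0.281 in TPTN hearts, 0.438, 0.390 and 0.419 in DOX hearts, and 0.273, 0.239 and 0.373 in Control hearts. Here too every DOX library was above every library of the other groups. In contrast, Rgs5 to Pdgfrb was 8.41 to 8.98 in TPTN hearts, 7.34 to 9.22 in DOX hearts and 7.78 to 9.88 in Control hearts, with wide overlap.

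Acta2 did not keep a fixed proportion to its smooth muscle partners. The ratio of Acta2 to Tagln was 6.81, 6.95 and 8.67 in TPTN hearts, 3.11, 5.08 and 3.56 in DOX hearts, and 11.3, 5.64 and 4.09 in Control hearts. All DOX libraries were below all TPTN libraries, and Control replicate 1 had the highest ratio of the 9. That library had 65.2 FPKM of Acta2 but only 5.79 FPKM of Tagln and 2.53 FPKM of Myh11. Actc1, the alpha-actin of heart muscle, had 4163, 4377 and 4167 FPKM in TPTN hearts, 3407, 4845 and 3977 FPKM in DOX hearts, and 3957, 3164 and 3486 FPKM in Control hearts. The 3 libraries lowest in Actc1 (Control replicates 2 and 3 and DOX replicate 1) were the 3 lowest in Acta2. Acta2 amounted to 1.14 to 1.54% of Actc1 in TPTN hearts, 1.02 to 1.39% in DOX hearts and 0.794 to 1.65% in Control hearts. The 2 genes share 0 words of 31 bases, as described with the printed sequences, and the part of heart muscle in the Acta2 values was not tested.

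**Figure D4:**
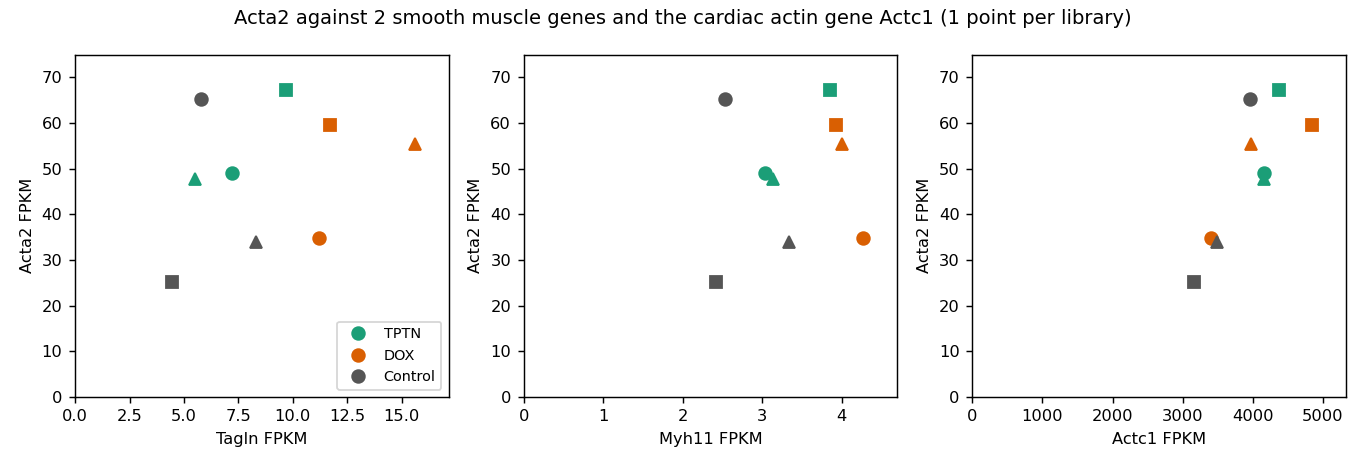
Acta2 FPKM (y axis) against FPKM of Tagln, Myh11 and Actc1 (x axes), with 1 point per library, coloured by group, on linear axes from 0. Control replicate 1 lies high in Acta2 and low in Tagln and Myh11, and the 3 libraries lowest in Actc1 are the 3 lowest in Acta2.

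The likeness of profiles was described by the root mean square difference between genes of log2(FPKM + 1), centred on each gene's mean, over the 9 libraries. Among pairs of the 8 genes, Pdgfrb and Cspg4 were the closest at 0.0811, followed by Rgs5 and Cspg4 at 0.0886, and Tagln and Abcc9 were the farthest apart at 0.658. Within the contractile genes, Myh11 and Cnn1 differed by 0.137, but Acta2 and Myh11 by 0.440 and Acta2 and Tagln by 0.531. A steady gene is close to any other steady gene, so these values are read beside the deviation of the gene itself from its mean. That deviation was 0.0782 for Cspg4, 0.0853 for Pdgfrb, 0.116 for Rgs5, 0.211 for Myh11 and 0.447 for Acta2. Pdgfrb and Rgs5 thus differed from Cspg4 by more than Cspg4 deviated from its own mean. Among 4140 genes with a mean of at least 5 FPKM, the 5 nearest to Acta2 were Fbxl22 at 0.189, the small heat shock protein gene Hspb1 at 0.213, the tubulin genes Tuba8 at 0.215 and Tubb4b at 0.217, and Gng11 at 0.237. The nearest to Myh11 were Lsmem1, Fig4, Nsmce1, Mcrip1 and Ppp1ca, at 0.0566 to 0.0862. The nearest to Rgs5 were Tmem186, Steap4, Ppif, Tmem69 and Plaat1, at 0.0496 to 0.0578, of which Steap4 stood in the pericyte list. The nearest to Pdgfrb were Rrn3, Rab21, Dgkd, Psmd11 and Dnaja3, at 0.0347 to 0.0506.

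Markers of other cell types were read beside these values. Summed endothelial markers were 206 to 243 FPKM in TPTN hearts, 208 to 238 in DOX hearts and 217 to 229 in Control hearts, so the groups overlapped, and 1 of 10, Kdr, a receptor for vascular endothelial growth factor, rose in TPTN hearts against DOX hearts (log2 difference 0.48, limma's adjusted p = 0.0303) and against Control hearts (0.66, adjusted p = 0.0161). These calls held in 3 and 6 of the 9 fits that left out a library, with adjusted p up to 0.0816 and 0.0683. Among 10 fibroblast markers Col3a1 rose in the same comparisons (0.65, limma's adjusted p = 0.0282, and 0.74, adjusted p = 0.0285), with each call held in 4 of 9 such fits and adjusted p up to 0.0804 and 0.109. Of all genes, limma called 0.792% as higher in TPTN against DOX and 0.336% as higher in TPTN against Control. Heart muscle markers gave 2 of 10 higher (Myl2 and Tnni3) and 1 lower (Ryr2) in DOX against Control, beside 2.23% and 0.4% of all genes. These calls held in 3, 1 and 3 of the 9 fits, with limma's adjusted p up to 0.126, 0.146 and 0.12. Each of the 3 scalings ended the calls of Myl2 and Tnni3, with adjusted p of 0.0512 or more. Red cell markers summed to 447 to 603 FPKM in TPTN hearts, 331 to 971 in DOX hearts and 396 to 944 in Control hearts. Mesothelial markers summed to at most 2.67 FPKM, in DOX replicate 1, and Adipoq of fat cells reached at most 0.170 FPKM. The part of these cell types in the values of the 8 genes was not tested.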

How the data were processed

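Polyadenylated RNA of mouse hearts was sequenced as paired Illumina reads from strand-marked (dUTP) libraries, per the labels' protocols. The authors deposited FPKM per gene. Per the submitters' processing notes, cutadapt 1.9, HISAT2 2.0.4, StringTie 1.3.4d, DESeq2, edgeR and GRCm38 were used, without roles. FPKM divides by the library's total, so abundant transcripts move all other values.

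Testing was on log2(FPKM + 1), which understates changes of low genes, and kept genes whose FPKM averaged 0.5 or more. All 9 libraries entered 1 model of 3 group means in limma 3.58.1, under R 4.3.3 with the package data.table (version 1.17.8), with a mean-variance trend and robust moderation on 6 residual degrees of freedom. Tests were two-sided, with Benjamini-Hochberg adjustment over 12500 genes at 0.05. Depth was unknown, so no count test was run, and the fit was tested on simulated data. A permutation of 3 against 3 libraries cannot give p below 0.1. Python 3.11.15, pandas 2.3.3, numpy 2.4.6 and matplotlib 3.10.9 were used.

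The 8 genes and the other lists were chosen with earlier results of these data known. Named from each other list are genes past the threshold, up to 4 per comparison by p, or else up to 2 with the smallest p. Cell type lists gave sums and up to 2 genes past the threshold. For 4 of the 8 genes the 5 nearest profiles are named. Actc1, Acta1, Srf, Myl9, Tpm2, Myl7, Nppa and Adipoq, and the fibroblast markers listed beside their sum, were named after their values were seen. Other settings were the pseudocount, the filter, the libraries fitted, robust moderation, a block, 3 scalings and leaving out each library.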

Additional observations from a re-analysis of the deposited data

How the results depend on the processing

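In DOX against Control, 329 genes passed, and 2 with no filter on low values, 170 with the replicate block, 173 (110 higher, 63 lower) after scaling by median ratios, 143 (76 higher, 67 lower) after quantile normalization and 176 when only the groups compared were fitted. Scaling that left mitochondrial genes and their nuclear copies out of the total gave 61 higher and 209 lower, against 279 higher and 50 lower as reported, and moved the median log2 difference of all genes to -0.071, against 0.044. In TPTN against DOX, 407 passed (99 higher, 308 lower), and 2 with no filter, 159 with the replicate block and 671 (542 higher, 129 lower) after the mitochondrial scaling, while quantile normalization gave 173 higher and 163 lower. In TPTN against Control, 90 passed, and 6 with no filter. Leaving out a library gave 2 to 314 genes in DOX against Control (2, 4 and 7 when Control replicate 2, Control replicate 3 and DOX replicate 2 were left out), 45 to 468 in TPTN against DOX (45 without TPTN replicate 3) and 21 to 148 in TPTN against Control. Of the 8 genes, 0 passed in every comparison and setting except 1 (Myh11) in DOX against Control with a minimum mean of 1 FPKM, where Cnn1 could not be tested, and 1 (Rgs5) in TPTN against DOX after quantile normalization. Same-numbered libraries did not deviate together: their correlations ran from -0.261 to 0.0233, and a library correlated best with its own number in 2 of 18 checks, so the numbers pair nothing. The replicate block raised the adjusted p of the named genes past the threshold to 0.0508 to 0.0803 (Pcp4l1, Pdgfa, Myl2, Tnni3, Myocd, Notch3 and Col3a1), while Ryr2 (0.0495) and Kdr (0.0454 and 0.0245) still passed. The log2 differences of these named genes kept their sign under the 3 scalings and without each library. The precision is limited by 3 libraries per group, and the cause of these shifts was not tested.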
